A study of Mus musculus with 16 samples.

Results

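The 8 genes described here encode S100 proteins, a family of small calcium-binding proteins: S100a4, S100a6, S100a8, S100a9, S100a10, S100a11, S100a14 and S100a16. They were chosen by name, with 1 transcript per gene, the one with the most ribosome footprints, out of 22579 gene symbols in the count tables. Organoids were grown for 2 weeks from epidermal cells of C57BL/6J mice of both sexes in telogen, the resting phase of the hair cycle, and were either left untreated or given N1-acetylspermidine (N1-AcSpd), an acetylated polyamine, for 72 h. Integrin α6-positive cells were then sorted into CD34-positive hair follicle stem cells (HFSCs) and CD34-negative cells, which the study calls progenitors, cells of the outer root sheath and inner bulge that descend from HFSCs. The 4 groups were thus untreated progenitors, untreated HFSCs, N1-AcSpd progenitors and N1-AcSpd HFSCs, each from the same 2 mice. RNA-seq, which counts transcript fragments, and Ribo-seq, which counts the stretches of mRNA covered by ribosomes (footprints), were made from the same lysate of each sample, which gave 16 libraries.

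S100 proteins fold around a pair of EF-hands, helix-loop-helix motifs that bind calcium, and most work as dimers that expose a binding face once calcium is bound. Inside the cell they bind annexins, cytoskeletal proteins and enzymes. Some are released and act on receptors such as RAGE (Ager) and TLR4. In skin many of their genes lie in the epidermal differentiation complex, S100A8 and S100A9 form the heterodimer calprotectin that is abundant in neutrophils and is induced in stressed or hyperproliferating epidermis, and others, such as S100A6 and S100A10, are general proteins of dividing keratinocytes.

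All 8 genes lie on mouse chromosome 3 in the GRCm38 assembly. The first cluster holds S100a14 (chr3:90526856-90528837), S100a16 (chr3:90537254-90543151), S100a4 (chr3:90603771-90606045), S100a6 (chr3:90612882-90624181) and S100a8 (chr3:90668978-90670035) on the forward strand, and S100a9 (chr3:90692632-90695721) on the reverse strand. These 6 genes span 169 kb, and 22.6 kb separate S100a8 from S100a9. S100a11 (chr3:93520488-93526287) and S100a10 (chr3:93555080-93564643), both on the forward strand, lie together within 44.2 kb further along the chromosome. The transcripts counted had 3 or 4 exons, and their coding parts were 267 to 372 bases long, which makes proteins of 89 to 124 residues. An annotated gene model on the same strand, Gm42674, shares 302 exon bases with S100a4, so reads there could be split between them (Gm42674 had 103 to 181 RNA-seq counts per library).

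Start-site sequences are shown for the members that carried the same core motif. RefSeq windows of 300 bases around annotated starts on GRCm38, from 250 before to 50 after, were found for 6 of the 8 genes (7 windows in all; none for S100a10 and S100a14) and searched on both strands for TATAAA, the core of a TATA box. The motif was in 3 of these 7 windows, those of S100a4, S100a8 and S100a9, and in 13.6% of all 32851 windows. In the stretches below, 5′ to 3′ on the gene's own strand, capitals mark TATAAA, which started 31 bases before the RefSeq start in S100a4, 30 bases before it in S100a8, and at base 1 of the most upstream annotated start in S100a9. The S100a8 transcript counted here starts further upstream, at chr3:90668978, so the motif lies downstream of that start.
S100a4 (chr3:90603727-90603756, forward strand): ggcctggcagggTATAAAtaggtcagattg
S100a8 (chr3:90669029-90669058, forward strand): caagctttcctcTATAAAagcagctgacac
S100a9 (chr3:90695704-90695733, reverse strand): caaggagctgccTATAAAtactgggcttac
Over 8 RNA-seq libraries the Pearson correlation of log2 CPM was 0.09 between S100a4 and S100a8 and 0.05 between S100a4 and S100a9, against 0.98 between S100a8 and S100a9.

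Depth differed widely between the assays. The RNA-seq libraries held 21601141 to 31505435 counts on the transcripts used, and the Ribo-seq libraries 34467 to 267921. Values are given as CPM, counts relative to the size of the library after scaling by the trimmed mean of M values (TMM). A count of 0 allows up to 3 counts, which is 12.5 to 73.4 CPM in the Ribo-seq libraries and 0.0934 to 0.145 CPM in the RNA-seq libraries; such limits cover counting error only. The sort was visible in the HFSC markers (Cd34, Krt15, Lhx2 and 5 others), whose summed RNA-seq level was 1410 to 1440 CPM in untreated progenitors and 1970 to 2120 CPM in untreated HFSCs, and 1280 against 1560 to 1710 CPM after N1-AcSpd. Not all of these markers went the same way. In untreated cells 7 of the 8 were higher in HFSCs and 1 was lower at an unadjusted p below 0.05 (edgeR). At an adjusted p below 0.05, 3 were higher and 0 lower. One pair of libraries stood apart. The RNA-seq difference between mouse 1 and mouse 2 correlated across 12242 genes at r = 0.36 to 0.70 between the other 3 groups, but at r = −0.65 to −0.36 between each of them and the N1-AcSpd HFSCs, which goes against the shared mouse numbers. The comparisons of untreated cells and of progenitors compare no N1-AcSpd HFSC library, and are given beside those that do. Their p-values still rest on a spread estimated from all 8 libraries of the assay.

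By RNA-seq level per kilobase of transcript, averaged over the 8 libraries, the order was S100a11 (1190 CPM per kb), S100a6 (1030), S100a10 (970), S100a14 (364), S100a16 (162), S100a8 (31.4), S100a9 (25.7) and S100a4 (18.7). Among the 12211 genes compared S100a11, S100a6 and S100a10 ranked 86, 95 and 103. The first 3 were not separated by their spread, since S100a11 was above S100a6 in 6 of 8 libraries and S100a6 above S100a10 in 5 of 8. S100a14 and S100a16 each kept their places in all 8 libraries, S100a8 was above S100a9 in 8 of 8, and S100a9 and S100a4 changed places, with S100a9 higher in 3 of 8. Of the 484 stretches of 28 bases in the S100a11 transcript, 84.1% also occurred elsewhere in the genome. How reads with several matches were counted is not known, which limits the RNA level and rank of S100a11.

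The order of footprints per kilobase of coding sequence was different. S100a6 led with 19200 CPM per kb and ranked 4 of the 12211 genes, followed by S100a10 (6970, rank 10), S100a14 (4120, rank 20), S100a8 (1630, rank 77), S100a16 (380), S100a9 (156), S100a4 (130) and S100a11 (14.8, rank 6276). S100a14 was above S100a8, and S100a8 above S100a16, in 7 of 8 libraries each. S100a9 was above S100a4 in only 4 of 8 and S100a4 above S100a11 in 6 of 8, while the other neighbours kept their places in all 8. The ratio of footprints to RNA, both per length, was 52 for S100a8, the 99.8th percentile of the 12211 genes, and 18.6 for S100a6 (98.3rd percentile), against a median of 1.71 over those genes. The ratio was 11.3 for S100a14, 7.19 for S100a10, 6.94 for S100a4, 6.04 for S100a9, 2.34 for S100a16 and 0.0125 for S100a11. Coding length and transcript length differ most in genes with long untranslated parts, so this ratio places genes against each other only on this scale. The transcript of every gene was also picked by its footprints, and the counted region is not known, which limits the footprint ranks and the ratios. By library the S100a8 ratio lay between 30.9 and 62.7 in the untreated groups and the N1-AcSpd progenitors, but was 156 in mouse 1 and 7.18 in mouse 2 of the N1-AcSpd HFSCs.

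**Figure D1:**
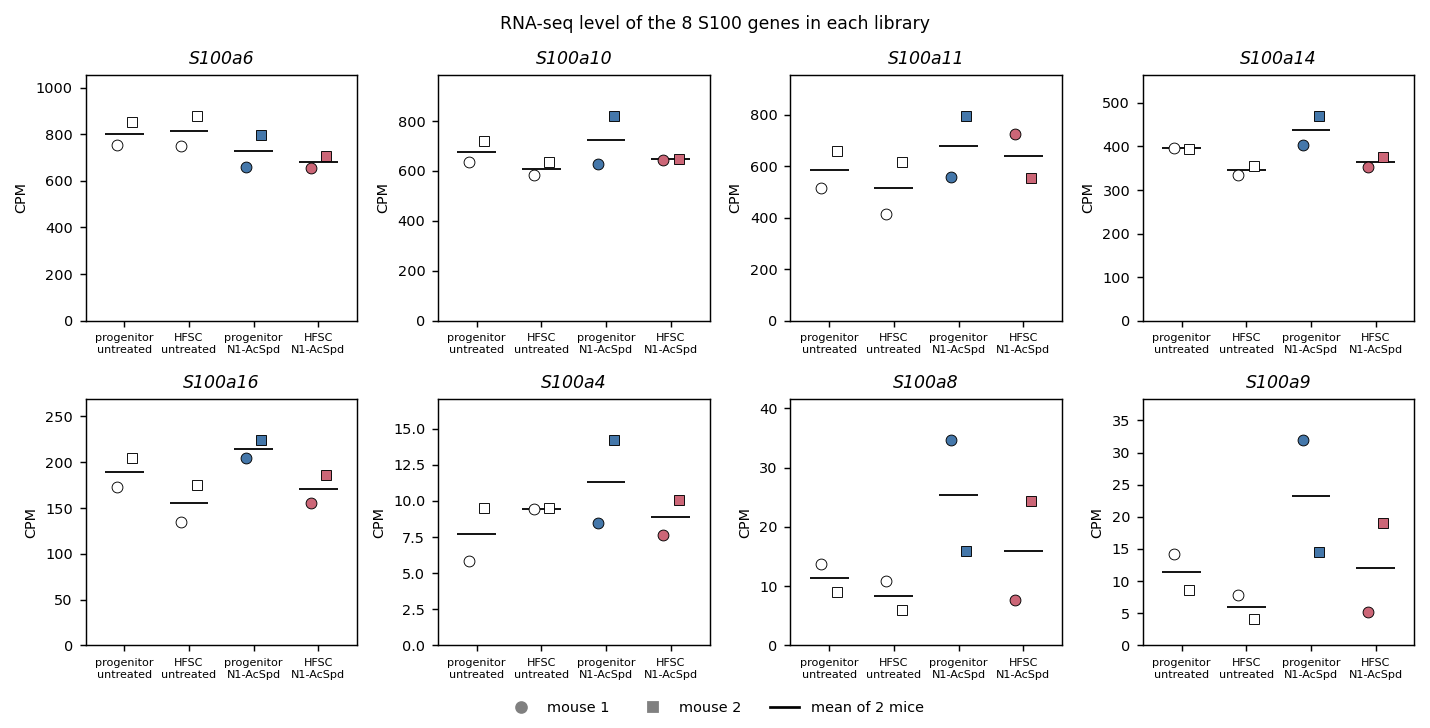
RNA-seq level in CPM of the 8 S100 genes in each of the 8 libraries, by group (circles mouse 1, squares mouse 2, lines the mean of 2 mice; each axis starts at 0). S100a8 and S100a9 vary 5.83-fold and 7.73-fold between libraries, while S100a6, S100a10 and S100a14 vary 1.35-fold to 1.41-fold.

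S100A8 and S100A9, the 2 subunits of calprotectin, sequester zinc and manganese and act as alarm signals outside the cell. In the averaged comparisons they were the members with the largest fitted differences, lower in HFSCs and higher after N1-AcSpd in both assays, but no difference passed an adjusted p of 0.05 in the TMM-scaled edgeR fit without a mouse term. No member was called with the mouse as a block either. A block that exchanges the mouse numbers of the N1-AcSpd HFSCs in RNA-seq was added after the data had been seen. It called 4 members in the cell type average and 3 in the treatment average, S100a8 and S100a9 among them in both. That exchange was picked from the mouse differences in these same RNA-seq values, so its calls carry no weight as a test. S100a8 RNA stood at 13.8 and 9 CPM in untreated progenitors (mouse 1 and mouse 2), 10.8 and 5.94 in untreated HFSCs, 34.6 and 16 in N1-AcSpd progenitors, and 7.62 and 24.4 in N1-AcSpd HFSCs. Both N1-AcSpd progenitor libraries were above both untreated ones, whereas the HFSC libraries of the 2 treatments overlapped. S100a9 RNA followed, with 14.2 and 8.69 CPM in untreated progenitors, 7.85 and 4.13 in untreated HFSCs, 31.9 and 14.5 in N1-AcSpd progenitors, and 5.21 and 19 in N1-AcSpd HFSCs. The groups that did not overlap for S100a9 were untreated HFSCs, which lay below untreated progenitors, and N1-AcSpd progenitors, which lay above untreated ones. Groups of 2 and 2 libraries that do not overlap were common, 21.5% of all 14205 genes being lower without overlap in the first comparison and 18.2% higher in the second.

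Both genes varied together across the RNA-seq libraries. The Pearson correlation of their log2 CPM was 0.98 over 8 libraries, and S100a9 ranked 5 of 10165 genes by likeness to S100a8. Their CPM ratio stayed between 0.971 and 1.46, at 0.971 to 1.11 in the 4 progenitor libraries and 1.28 to 1.46 in the 4 HFSC libraries. These libraries come from 2 mice and share lysates with the Ribo-seq, so the correlation is a description.

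Averaged over both treatments, S100a8 RNA differed by −0.54 on the log2 scale between HFSCs and progenitors (SE 0.39, adjusted p = 0.51, edgeR quasi-likelihood test) and S100a9 RNA by −0.92 (SE 0.42, adjusted p = 0.295). The untreated cells alone gave −0.44 and −0.92 (adjusted p = 0.877 and 0.716). The cell type averages ran from −1.06 to −0.21 for S100a8 and from −1.51 to −0.57 for S100a9 with 1 library left out, the lowest values without N1-AcSpd HFSC mouse 2 and the highest without N1-AcSpd progenitor mouse 1. In untreated cells S100a8 was at −0.93 without HFSC mouse 1 and at −0.068 without HFSC mouse 2. For N1-AcSpd against untreated, averaged over both cell types, the differences were 1.04 for S100a8 (SE 0.39, adjusted p = 0.239, edgeR) and 1.01 for S100a9 (SE 0.42, adjusted p = 0.291). Progenitors alone gave 1.15 for S100a8 and 1.01 for S100a9 (adjusted p = 0.617 and 0.701, edgeR), and HFSCs alone 0.94 and 1.01 (0.747 and 0.748). The HFSC value rested on 1 library: without N1-AcSpd HFSC mouse 2, S100a8 was at −0.13 and S100a9 at −0.20 in HFSCs, and S100a8 at 0.52 in the average.

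Footprints on S100a8 gave a similar order of groups. The counts were 17 and 70 in untreated progenitors (416 and 292 CPM), 10 and 17 in untreated HFSCs (183 and 133 CPM), 96 and 33 in N1-AcSpd progenitors (1190 and 520 CPM), and 93 and 6 in N1-AcSpd HFSCs (655 and 96.3 CPM). In untreated cells both HFSC libraries were below both progenitor libraries (15.5% of all 8431 genes tested were lower without overlap), and N1-AcSpd progenitors were above untreated progenitors (12.4% higher without overlap). The HFSC libraries of both treatments overlapped, since N1-AcSpd HFSC mouse 2 was the lowest of all 8. For S100a9 the counts were 3 and 16, 0 and 1, 10 and 4, and 10 and 1 in the same order of groups, and the 0 allows up to 54.9 CPM. Both untreated HFSC libraries were below both untreated progenitor libraries and below both N1-AcSpd HFSC libraries (16.4% of all genes were higher without overlap in the latter comparison). In that comparison mouse 2 held 1 footprint in untreated HFSCs (7.84 CPM) and 1 in N1-AcSpd HFSCs (16.1 CPM), which is no difference in counts.

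In the Ribo-seq average of both cell types S100a8 differed by 1.29 on the log2 scale between N1-AcSpd and untreated cells (SE 0.32, adjusted p = 0.0817, edgeR), ranking 6 of the 8431 genes, and the estimates were 1.30 in progenitors and 1.29 in HFSCs. S100a9 differed by 0.92 (SE 0.45, adjusted p = 1). Between HFSCs and progenitors S100a8 differed by −1.06 (SE 0.32, adjusted p = 0.348) and S100a9 by −1.29 (SE 0.49, adjusted p = 0.987). Which side of the threshold the S100a8 treatment difference fell on varied with the fit: its adjusted p was 0.0216 with RLE factors in place of TMM, 0.0164 without untreated progenitor mouse 1, 0.048 without N1-AcSpd progenitor mouse 2 and 0.0184 without N1-AcSpd HFSC mouse 2, while it was 0.662 with the mouse as a block, at a difference of 1.00, and 1 by DESeq2, at 1.21. Without N1-AcSpd HFSC mouse 1 the S100a8 footprint difference between the cell types was −1.96 (adjusted p = 0.00297), and the treatment difference was 0.31 (adjusted p = 0.95).

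**Figure D2:**
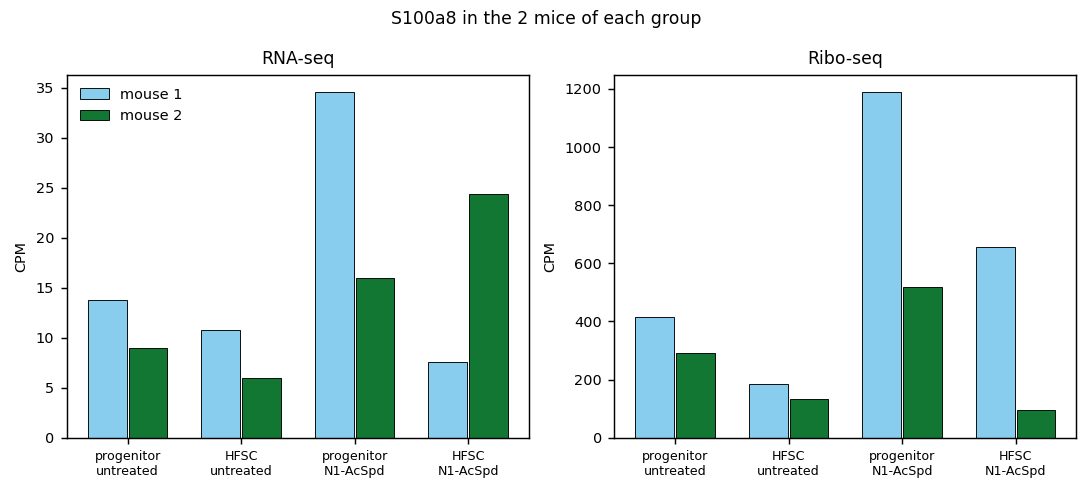
S100a8 in CPM in each library, RNA-seq on the left and Ribo-seq on the right, with mouse 1 and mouse 2 side by side in the 4 groups. Mouse 1 is above mouse 2 in all 4 groups in Ribo-seq but in only 3 in RNA-seq, since in N1-AcSpd HFSCs RNA-seq gives 7.62 and 24.4 CPM and Ribo-seq 655 and 96.3 CPM.

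RNA and footprints of the same lysate disagreed in N1-AcSpd HFSCs. The log2 ratio of mouse 1 to mouse 2 for S100a8 RNA was 0.52 in untreated progenitors, 0.69 in untreated HFSCs and 1.02 in N1-AcSpd progenitors, but −1.46 in N1-AcSpd HFSCs. For S100a8 footprints it was 0.51, 0.45, 1.19 and 2.74 in the same order. For S100a8 the 2 assays therefore ordered the mice alike in 3 groups and oppositely in the one whose RNA-seq libraries stood apart. S100a9 had 0.60, 0.68, 1.04 and −1.54 in RNA and 0.13, −2.30, 0.96 and 2.00 in footprints, which rest on 0 to 16 footprints per library, so its assays were opposed in untreated HFSCs too. Whether the 2 RNA-seq libraries of N1-AcSpd HFSCs carry each other's mouse number was not tested.

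Markers of other cells were read beside these genes. Of 10 neutrophil and other myeloid markers none was detected in all 8 RNA-seq libraries, Ly6g, Lyz2, Cybb, Csf3r and Tyrobp were at 0 in all 8, and the summed level of the 10 lay between 0 and 0.407 CPM. The defining Langerhans marker Cd207 was at 0 in all 8, while the 5 Langerhans markers, which include Epcam and Cd74, summed to 63.1 to 118 CPM; 4 T cell markers summed to at most 0.114 CPM, 5 melanocyte markers to 0.792 to 2.12 CPM and 4 endothelial markers to 0.818 to 1.74 CPM. The sum of the 8 suprabasal keratinocyte markers (Krt1, Krt10, Ivl, Lor and 4 others) correlated with S100a8 RNA at r = 0.72 (log2 CPM, 8 libraries). With S100a9 RNA the correlation was 0.79. The sum ordered the mice as S100a8 RNA did in both N1-AcSpd groups, but oppositely in untreated HFSCs. In untreated progenitors its values were close, at 434 and 443 CPM. These markers summed to 434 and 443 CPM in untreated progenitors, 224 and 308 in untreated HFSCs, 910 and 670 in N1-AcSpd progenitors and 299 and 393 in N1-AcSpd HFSCs. Of these 8, 5 were lower in HFSCs and 2 higher after N1-AcSpd at an adjusted p below 0.05 in the averaged RNA-seq comparisons, and 7 were detected in all 8 libraries. Fewer cells of a type and less RNA per cell cannot be told apart in bulk samples, and the part of differentiating cells in the S100a8 and S100a9 values was not tested.

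S100A6, S100A10 and S100A11 bind annexins at membranes; S100A10 forms a tetramer with annexin A2 and S100A6 also binds the calcyclin-binding protein (Cacybp). S100a6 RNA was 755 and 851 CPM in untreated progenitors, 750 and 880 in untreated HFSCs, 658 and 798 in N1-AcSpd progenitors, and 653 and 707 in N1-AcSpd HFSCs. Its cell type difference was −0.04 (SE 0.10, adjusted p = 0.876, edgeR) and its treatment difference −0.20 (SE 0.10, adjusted p = 0.355), the only member below 0 in that average. Both N1-AcSpd HFSC libraries were below both untreated HFSC libraries, as were 17.2% of all genes. In Ribo-seq S100a6 held 106 to 1637 footprints per library (2590 to 6830 CPM), with differences of 0.31 (SE 0.25) between cell types and −0.07 (SE 0.25) between treatments. It was the one member with a higher fitted footprint level in HFSCs in that average, and after N1-AcSpd both HFSC libraries were above both progenitor libraries (18.9% of all genes). Without untreated progenitor mouse 1, whose 34467 footprints were the fewest, the treatment estimate was −0.34, and without mouse 2 of that group it was 0.36.

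S100a10 RNA stood at 634 and 720 CPM in untreated progenitors, 582 and 637 in untreated HFSCs, 627 and 822 in N1-AcSpd progenitors, and 645 and 647 in N1-AcSpd HFSCs, and only the N1-AcSpd HFSCs lay apart, above untreated HFSCs (16.7% of all genes). Its differences were −0.16 (SE 0.10, adjusted p = 0.453, edgeR) between cell types and 0.09 (SE 0.10, adjusted p = 0.717) between treatments. Footprints, 48 to 665 per library (1170 to 2780 CPM), differed by −0.11 and 0.07 (SE 0.26 each).

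**Figure D3:**
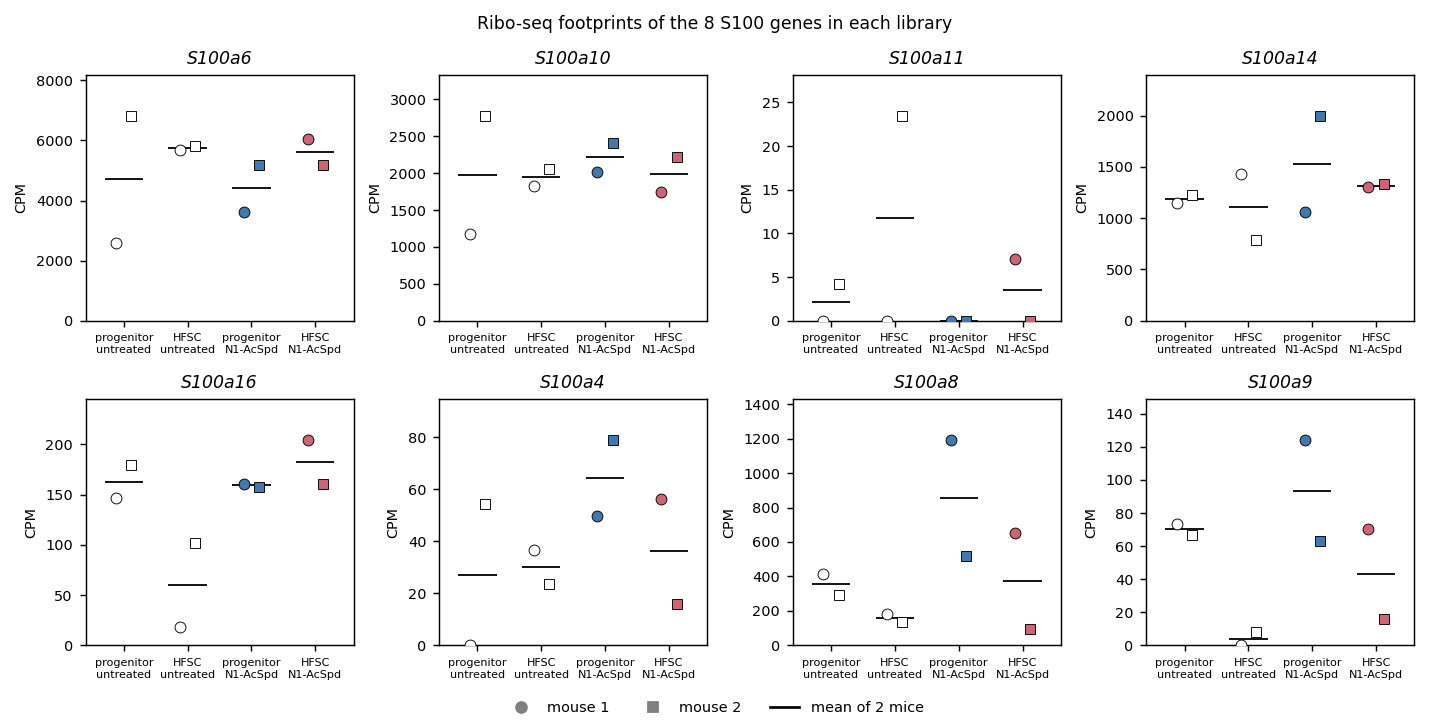
Ribo-seq level in CPM of the 8 S100 genes in each library, arranged as in the RNA-seq plot. S100a6 runs from 2590 to 6830 CPM, S100a8 from 96.3 to 1190 CPM, and S100a11 has no footprint in 5 of 8 libraries.

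S100a11 was the exception in the footprint data. Its RNA was 514 and 660 CPM in untreated progenitors, 416 and 618 in untreated HFSCs, 558 and 797 in N1-AcSpd progenitors and 726 and 556 in N1-AcSpd HFSCs, and it differed by −0.13 between cell types (SE 0.17, adjusted p = 0.739, edgeR) and 0.26 between treatments (SE 0.17, adjusted p = 0.522). Mouse 1 was below mouse 2 in 3 groups and above it in N1-AcSpd HFSCs. Over all libraries 121119 RNA-seq counts went with 5 footprints, 1 in untreated progenitors, 3 in untreated HFSCs and 1 in N1-AcSpd HFSCs. In the 5 libraries at 0 the upper limits were 37.3 to 73.4 CPM. It was the 1 member that failed the minimum of a mean of 1 footprint per library, so it has no Ribo-seq test.

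The coding sequence of S100a11 is repeated in the genome. Of its 270 coding words of 28 bases, about the length of a footprint, 241 (89.3%) also occurred elsewhere in GRCm38, in 8 places, against 0% to 3.37% for the other members. The longest run, 267 bases without a difference, lies on chromosome 4 (chr4:116067240-116067506) in the processed pseudogene Gm12854. The stretch below is shown because that run ends within it; both differing bases are coding bases in S100a11, read 5′ to 3′ on the forward strand, and capitals mark the 2 bases of 56 that differ.
S100a11 (chr3:93526063-93526118): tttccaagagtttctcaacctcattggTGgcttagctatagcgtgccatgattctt
copy (chr4:116067480-116067535): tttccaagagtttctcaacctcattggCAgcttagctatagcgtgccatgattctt

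Other abundant genes showed the same pairing of values. There were 211 genes with at least as many RNA-seq counts as S100a11, itself included, and 38 of them had at most 5 footprints, among them Actg1, Gapdh, Ppia, Pgk1, Ptma, Eif4a1 and many ribosomal protein genes. In these 38 the median share of 28-base coding words found elsewhere was 100%, and 37 were above 50%. In the other 173 the median was 16.5%, 64 were above 50% and the median was 586 footprints. How reads with several matching places were counted is not given in the sources used here, and the part of repeated sequence in the low footprint count was not tested.

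**Figure D4:**
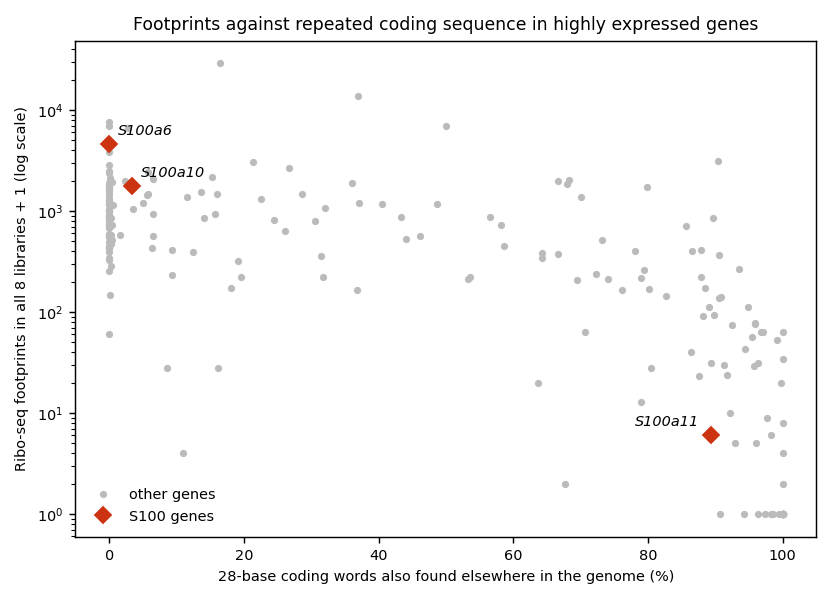
Footprints in all 8 Ribo-seq libraries plus 1 (log scale) against the percentage of 28-base coding words also found elsewhere in the genome, for the 211 genes with at least as many RNA-seq counts as S100a11 (each point is 1 gene, S100 genes as red diamonds). S100a6 and S100a10 sit at 0% and 3.37% with 4604 and 1777 footprints, and S100a11 at 89.3% with 5.

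S100A14 and S100A16 are members with a degenerate EF-hand, S100A14 being largely a protein of epithelia. S100a14 RNA gave the one separation of all 4 libraries of a cell type: 335 and 355 CPM in untreated HFSCs and 353 and 375 in N1-AcSpd HFSCs lay below 397 and 395 in untreated progenitors and 404 and 471 in N1-AcSpd progenitors (4.37% of all genes were lower in HFSCs without overlap). The means were 354 ± 16.3 CPM in HFSCs and 417 ± 36.5 CPM in progenitors (SD, n = 4), a difference of −0.23 on the log2 scale (SE 0.08, adjusted p = 0.144, edgeR). Untreated cells alone gave −0.20 (adjusted p = 0.627) and N1-AcSpd cells −0.27 (adjusted p = 0.394). N1-AcSpd progenitors were also above untreated progenitors, one of 3 members without overlap there (18.2% of all genes). S100a14 footprints, 47 to 295 per library (784 to 2000 CPM), overlapped between the cell types, with −0.17 (SE 0.27), and turned to 0.09 when N1-AcSpd progenitor mouse 2 was left out.

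S100a16 was close to S100a14 in RNA, with r = 0.88 over 8 libraries. It measured 173 and 205 CPM in untreated progenitors, 135 and 175 in untreated HFSCs, 205 and 224 in N1-AcSpd progenitors and 155 and 186 in N1-AcSpd HFSCs, so that HFSCs were lower without overlap after N1-AcSpd (19.4% of all genes were lower and 19.6% higher) and overlapped progenitors without it. The averaged difference was −0.31 (SE 0.11, adjusted p = 0.176, edgeR). Footprints numbered 1 to 43 per library. After N1-AcSpd the difference in HFSCs was 1.19 (SE 0.58, adjusted p = 1), from 18.3 and 102 CPM to 204 and 161 CPM, where 16.4% of all genes were higher without overlap. The 18.3 CPM was a single footprint. S100a14 and S100a16 differed between treatments by 0.11 and 0.16 in RNA (SE 0.08 and 0.11) and by 0.31 and 0.56 in footprints (SE 0.27 and 0.40).

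S100A4, which binds non-muscle myosin and is best known from mesenchymal and moving cells, was the lowest member by mean RNA level per length. Its RNA was 5.86 and 9.51 CPM in untreated progenitors, 9.43 and 9.5 in untreated HFSCs, 8.46 and 14.2 in N1-AcSpd progenitors and 7.62 and 10.1 in N1-AcSpd HFSCs. All groups overlapped. The differences were −0.03 (SE 0.21, adjusted p = 0.971, edgeR) between cell types and 0.23 (SE 0.21, adjusted p = 0.662) between treatments. It had 36 footprints in all, 0 to 13 per library, and the 0 in untreated progenitor mouse 1 allows up to 73.4 CPM. The 6 fibroblast markers, cells in which S100A4 is abundant, summed to 1.07 to 13.6 CPM, with Lum at 0 in all 8 libraries.

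**Figure D5:**
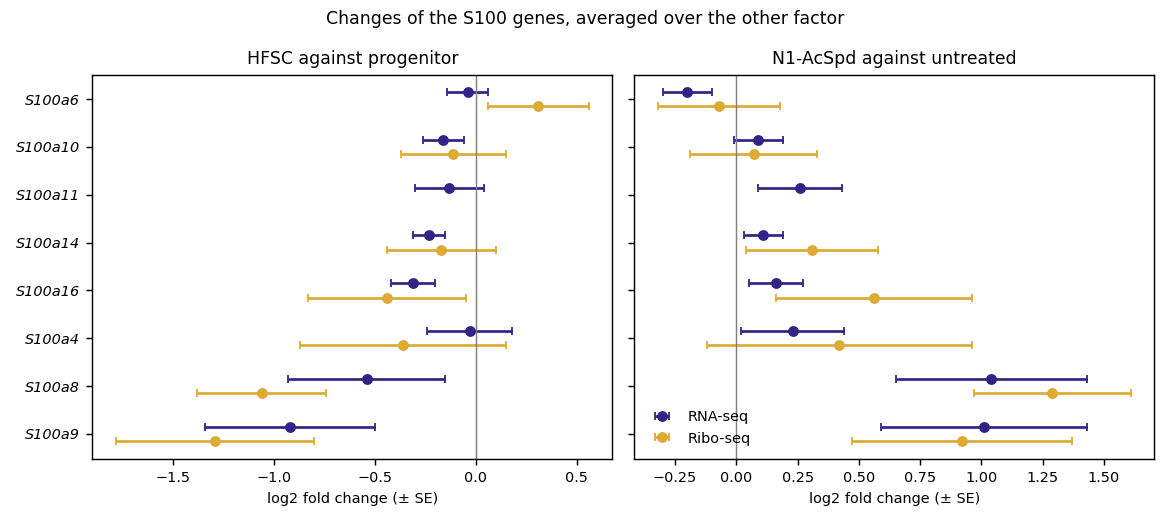
Log2 fold changes with SE of the S100 genes in RNA-seq and Ribo-seq (8 libraries each), averaged over treatment (left, HFSC against progenitor) and over cell type (right, N1-AcSpd against untreated). S100a8 and S100a9 lie farthest from 0 on both sides, and S100a11 has no Ribo-seq test.

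Counted together, no member passed an adjusted p below 0.05 in any RNA-seq comparison in the TMM-scaled edgeR fit without a mouse term. The share of all 14205 genes that passed was 0.148% for HFSCs against progenitors when untreated, 0.753% after N1-AcSpd and 3.91% in their average; for N1-AcSpd against untreated it was 0.239% in progenitors, 0% in HFSCs and 1.63% in their average, and it was 0% for the interaction. At an unadjusted p below 0.05 there were 2 members of 8 in each average (S100a14 and S100a16 lower in HFSCs, S100a8 and S100a9 higher after N1-AcSpd), where 18.1% and 15.6% of all genes passed, 1 member among N1-AcSpd cells (11.2%) and 0 members in untreated cells (9.6%), in N1-AcSpd progenitors (8.9%), in N1-AcSpd HFSCs (7.75%) and in the interaction (0.831%). DESeq2 called 0 members in each of these. All 8 fitted differences were below 0 in the cell type average, with a median of −0.20 (−0.01 over all genes), and 7 of 8 were above 0 in the treatment average, with a median of 0.20 (−0.01 over all genes).

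In Ribo-seq 0 of the 7 members tested were called in any comparison by DESeq2 or by edgeR with TMM factors on all 8 libraries. Of all 8431 genes, 0.0119% passed for untreated cell types, 0.0237% for N1-AcSpd cell types, 0.154% for their average, 0.0237% for N1-AcSpd in progenitors, 0% in HFSCs, 0.0356% in their average and 0% for the interaction. Unadjusted, 2 members were below 0.05 in each average (S100a8 and S100a9 in both), against 4.06% and 4.7% of all genes. The simple comparisons gave 2 members in untreated cells (2.62%), 1 in N1-AcSpd cells (3.42%), 1 in progenitors (2.88%) and 3 in HFSCs (3.44%), and the interaction gave 0 (2.67%). The median differences were −0.36 between cell types and 0.42 between treatments, against 0.01 and −0.04 over all genes. With 1 library left out they were −0.51 to −0.15, highest without untreated progenitor mouse 2, and 0.28 to 0.63, lowest without N1-AcSpd HFSC mouse 1. Within mice the cell type median was 0.21 in mouse 1 and −0.62 in mouse 2. The interaction, which asks whether the treatment difference depends on the cell type, was −0.21 for S100a8 in RNA and −0.01 in footprints, both with an adjusted p of 1 by edgeR.

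Translational efficiency, the change in footprints beyond the change in RNA, was tested as an interaction of assay and group. No member and 0% of all genes passed in any of the 6 comparisons, and 0 members were below an unadjusted p of 0.05 in each. The unadjusted share of all genes was 5.25% and 6.4% for cell types in untreated and N1-AcSpd cells, 6.05% in their average, and 5.93%, 6.83% and 7.33% for the treatment in progenitors, HFSCs and their average. DESeq2 likewise called 0 members. The members' medians were −0.17 between cell types and 0.34 between treatments in the averages, with smallest adjusted p of 0.896 (S100a6) and 0.816 (S100a16). With 1 library pair left out they ranged from −0.39 to 0.058, positive without untreated progenitor mouse 2, and from −0.0082 to 0.55, negative without N1-AcSpd HFSC mouse 1. For S100a8 the values were −0.50 (SE 0.62) and 0.47 (SE 0.63).

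The rest of the family and its partners were read from fixed lists. Of 9 other S100 genes 6 could be tested in RNA-seq and 1 was called: S100a1, known from heart muscle, was higher in HFSCs by 1.00 (SE 0.23, adjusted p = 0.0499, edgeR). Its RNA was 10.4 and 14.7 CPM in untreated progenitors, 19.2 and 33.4 in untreated HFSCs, 7.55 and 13.5 in N1-AcSpd progenitors and 20.7 and 19.8 in N1-AcSpd HFSCs, with every HFSC library above every progenitor library (5.11% of all genes). The call was lost without any 1 library other than untreated HFSC mouse 1 or N1-AcSpd progenitor mouse 2 (adjusted p of up to 0.164), with differences of 0.79 to 1.25, and also with a minimum mean of 10 counts (0.0539) and with counts summed over transcripts (0.0569). None of the 6 was called for N1-AcSpd, the 2 that could be tested in Ribo-seq were not called, and the median of the 6 was 0.01 between cell types and −0.11 between treatments.

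S100 fused-type proteins carry an S100 domain in front of long repeats and build the cornified envelope and hair sheath. Of 7 genes 6 were tested in RNA-seq, all 6 with estimates below 0 in HFSCs (median −1.24) and all 6 above 0 after N1-AcSpd (median 1.16). Most were near the floor, with group means of 0.0467 to 1.64 CPM for Flg, Hrnr, Tchhl1 and Crnn. Tchh, the highest of the list, averaged 11.9 CPM in untreated and 12.9 CPM in N1-AcSpd progenitors. In HFSCs it averaged 8.99 CPM untreated and 8.44 CPM after N1-AcSpd. Rptn (repetin) was called in both averages, at −2.18 (SE 0.43, adjusted p = 0.0305, edgeR) and 2.89 (SE 0.44, adjusted p = 0.0209). Its counts were 27 and 16 in untreated progenitors, 2 and 2 in untreated HFSCs, 143 and 66 in N1-AcSpd progenitors and 16 and 73 in N1-AcSpd HFSCs, so the untreated HFSC level is within the limit of 3 counts and the fitted fold depends on the prior count (−2.52 and 3.27 with a prior count of 0.5). The cell type call was lost with the mouse as a block (adjusted p = 0.0609) and without untreated progenitor mouse 1, either untreated HFSC library or N1-AcSpd progenitor mouse 1 (up to 0.113), and the treatment call without any 1 library other than N1-AcSpd progenitor mouse 2 or N1-AcSpd HFSC mouse 1 (up to 0.0871). Only 1 of the 7 could be tested in Ribo-seq, and it was not called. The direction of this list was that of S100a8, S100a9 and the suprabasal markers.

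Among 12 intracellular partners, all tested in RNA-seq, Anxa1 (annexin A1, a partner of S100A11) was called lower in HFSCs, at −0.48 (SE 0.07, adjusted p = 0.0117, edgeR), with 430 to 490 CPM in 4 HFSC libraries and 599 to 685 CPM in 4 progenitor libraries. No other partner was called in either average, and the list's medians were −0.11 and −0.07. In Ribo-seq 11 were tested and none was called. The call of Anxa1 was lost without either untreated progenitor library or untreated HFSC mouse 2 (adjusted p of up to 0.0594).

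Of 8 receptors for S100 proteins outside the cell 6 were tested in RNA-seq and none was called, with medians of −0.07 and 0.06. Bsg (basigin) was at 500 to 639 CPM and Nptn (neuroplastin) at 133 to 153 CPM, both receptors of calprotectin. Ager was at 0.289 to 0.75 CPM and Tlr4 at 0.256 to 0.917 CPM, and both were without a footprint in all 8 Ribo-seq libraries. By the smallest p in untreated cells, the genes to name were Ptprj (−0.35) and Tlr4 (−0.73), with adjusted p of 0.559 and 0.737 by edgeR. In Ribo-seq 4 were tested and none was called.

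The 10 other EF-hand genes of keratinocytes, all tested in RNA-seq, included 2 that were called between the cell types, both lower in HFSCs. Calm4, a calmodulin-like gene of differentiating keratinocytes, was at −1.73 (SE 0.20, adjusted p = 0.00447, edgeR) and Calm5 at −1.36 (SE 0.28, adjusted p = 0.0337), while the list's median was −0.09. Calm4 RNA stood at 52.5 and 49 CPM in untreated progenitors, 14.8 and 21.4 in untreated HFSCs, 176 and 132 in N1-AcSpd progenitors and 27.8 and 50.5 in N1-AcSpd HFSCs, and rose with N1-AcSpd by 1.36 (SE 0.20, adjusted p = 0.0173). In footprints Calm4 was also lower in HFSCs, with a difference of −1.64 (SE 0.36, adjusted p = 0.00764), and it was the only one of 8 tested there that was called. Calm4 was thus called in RNA and footprints in the direction in which S100a8 and S100a9 were not, and whether their changes differ was not tested. The cell type call of Calm4 RNA held without any 1 library; its treatment call was lost without either untreated progenitor library, untreated HFSC mouse 1 or N1-AcSpd progenitor mouse 1 (adjusted p of up to 0.063), and its footprint call without mouse 2 of untreated progenitors, untreated HFSCs or N1-AcSpd HFSCs or mouse 1 of N1-AcSpd progenitors (up to 0.51) and with counts summed over transcripts (adjusted p = 1). The Calm5 call was lost when any 1 library was left out (adjusted p of up to 0.123) and with the mouse as a block (0.0568).

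The genes most like each member over the 8 RNA-seq libraries were sought among the 10165 genes that averaged 100 counts or more, by Pearson correlation of log2 CPM. S100a8 was nearest to Gcat and Eif1ad (r = 0.99 each) and S100a9 to Rps6ka4 (0.99). S100a6 was nearest to Myl12a (0.96) and Nr2c1 (0.95), S100a10 to Capg (0.99) and Sfr1 (0.98), S100a11 to mt-Atp8 (0.99) and mt-Atp6 (0.98), S100a14 to Rhod (0.97) and Tbrg1 (0.95), S100a16 to Lyrm1 (0.98) and Gm20390 (0.97), and S100a4 to Trappc4 (0.92) and Mrrf (0.91). With 8 libraries from 2 mice and this many genes, such values describe the libraries and carry no test.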

How the data were processed

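RNA-seq and Ribo-seq were made from the same lysates of sorted cells of 2 mice. Per the labels and the study's methods, the authors trimmed adapters (flexbar), discarded reads matching rRNA or tRNA (Bowtie 1.2.3) and aligned the rest with STAR 2.7.3a to mm10; featureCounts is named in the submitters' processing notes. The authors deposited raw counts per transcript (64026 transcripts), without molecular identifiers, so PCR copies are counted. The counted region and the treatment of reads with several matches are not given in the sources used here. Tables of the authors' own translation comparisons (fold changes and p-values) were used for gene names only.

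One transcript per gene symbol was kept (most footprints). Genes that averaged 1 count or more per library were tested in edgeR 4.0.16 under R 4.3.3 by the quasi-likelihood test with TMM factors, a prior count of 2 and Benjamini-Hochberg adjustment over all genes tested; the 4 groups shared 1 estimate of the spread, without a mouse term. SE is the absolute log2 fold change divided by the root of F. Translational efficiency was the interaction of assay and group. The fits were run on simulated counts with the same spread for every gene and no difference between mice. Such counts cannot show how the fits perform for variable members such as S100a8 and S100a9. Alternatives were DESeq2 1.42.0, RLE factors, other minimum counts and prior count, counts summed over transcripts, the mouse as a block and leaving out each library. Comparisons of 2 groups within an assay were also fitted on only the 4 libraries compared. The mouse numbers are the replicate numbers of the labels, which do not say whether a number names the same animal in every group. The deviations of same-numbered libraries correlated at −0.65 to 0.70 in RNA-seq (12242 genes) and at 0.02 to 0.10 in Ribo-seq (2259 genes). Each group holds 2 mice, which limits every p-value. The members and lists were chosen with earlier results of these data known. Named were all members, list genes at an adjusted p below 0.05 (otherwise the 2 with the smallest p in untreated RNA-seq) and the 2 genes most like each member (1 of these genes is not reported here); the Rptn counts in untreated HFSCs and the genes with at most 5 footprints were singled out after their values were seen.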

Additional observations from a re-analysis of the deposited data

Results flagged for a closer look

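S100a16 footprints were lower in HFSCs than in progenitors in both untreated mice, but not in either mouse after N1-AcSpd. The difference, HFSC minus progenitor, was −129 CPM in mouse 1 and −77 CPM in mouse 2 when untreated, and 43 CPM and 3 CPM after N1-AcSpd. The opposite signs drew attention to it, but mouse 2 after N1-AcSpd had 10 footprints in each library (161 and 158 CPM), so its 3 CPM is no difference in counts. The interaction of cell type and treatment was 1.26 on the log2 scale (adjusted p = 1, edgeR). The values rest on 1 to 43 footprints per library, and S100a16 RNA was lower in HFSCs in both mice under both conditions. The pattern was found by screening the members in both assays for opposite signs, and its share over all genes was not counted. The differences pair libraries by mouse number, and the deviations of same-numbered Ribo-seq libraries correlated at only 0.02 to 0.10.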

How the results depend on the processing

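With 2 mice a group and 34467 footprints in the shallowest Ribo-seq library, values of members with few footprints (S100a4, S100a9, S100a11, S100a16) have wide errors. Of the values of single genes under an alternative, 661 kept direction and side of the threshold, 40 lost it, 19 passed it and 21 changed sign. The mouse as a block changed no member's call; the sign of the S100a4 RNA cell type average turned (0.0084), the calls of Rptn and Calm5 between the cell types were lost, and all-gene RNA-seq calls fell from 21 to 3 and 107 to 44 (cell type, untreated and N1-AcSpd) and from 34 to 7 and 232 to 132 (treatment, progenitors and average). It changed no other call among the genes named. A crossed block, in which mouse 1 and mouse 2 of the N1-AcSpd HFSCs swap places in RNA-seq and which was added once the data had been seen, called 1, 1, 2, 4 and 3 members (cell type untreated and N1-AcSpd, treatment in progenitors, both averages) and 748, 903, 441, 1951 and 1258 genes, with S100a4 at 0.0086. This swap was picked from the mouse differences in these same RNA-seq values, so its counts carry no weight as a test. The tally of single-gene values above includes this swap. RLE factors called 1 member in the Ribo-seq treatment average.

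Single-library omissions gave these ranges. S100a8 RNA was −1.70 to 0.019 between N1-AcSpd cell types and −0.13 to 1.52 for the treatment in HFSCs, where S100a9 was −0.20 to 1.64. In RNA averages between cell types S100a4 was −0.18 to 0.20, S100a6 −0.096 to 0.050 and S100a11 −0.28 to 0.023, and S100a10 was −0.0072 to 0.20 between treatments. In footprints between cell types S100a4 was −0.69 to 0.33, S100a10 −0.30 to 0.28 and S100a14 −0.40 to 0.092; between treatments S100a6 was −0.34 to 0.36 and S100a10 −0.17 to 0.46. Members' RNA medians were −0.22 to −0.088 and −0.37 to −0.040 between cell types (untreated, N1-AcSpd), 0.080 to 0.37 and −0.053 to 0.26 between treatments (progenitors, HFSCs), −0.26 to −0.098 and 0.091 to 0.30 in the averages and −0.18 to 0.019 for the interaction. Footprint medians were 0.11 to 0.73 for the treatment in HFSCs and −0.16 to 0.36 for the interaction, and the translational efficiency median was −0.67 to 0.37 between untreated cell types. Members called in both Ribo-seq averages were 0 to 1. The cause of these changes was not tested.

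All-gene RNA-seq calls, in the order cell type untreated, N1-AcSpd and average, then treatment in progenitors, HFSCs and average, were 21, 107, 556, 34, 0 and 232, against 268, 375, 949, 174, 125 and 581 by DESeq2 and 168, 256, 873, 107, 38 and 419 without a minimum count. Counts summed over transcripts gave 71, 1 and 145 for N1-AcSpd cell types, progenitors and the treatment average. In Ribo-seq the averages gave 13 and 3 calls, 7 and 0 by DESeq2, 1 and 0 with summed counts, and 12 for the treatment with RLE factors.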
